A study of Mus musculus with 52 samples.

Results

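The comparison described here set male APP/E4 mice against male APP/E3 mice fed a Western-type high-fat diet (HFD), and asked how human APOE4 differs from human APOE3 in the cortex of amyloid-forming males on that diet. Its members were chosen from the labels alone, as all libraries with gender M and diet HFD, which gave 5 APP/E4 and 6 APP/E3 libraries, 11 of the 52 in the series. Animals of both groups, like every animal of the series, carried the APP/PS1ΔE9 transgenes, which drive amyloid deposition, and were homozygous for a targeted replacement of mouse Apoe by a human allele, APOE3 in APP/E3 and APOE4 in APP/E4. The diet drew 40% of its calories from fat (anhydrous milk fat and corn oil), 42.6% from carbohydrate and 16.8% from protein. Feeding started when animals averaged 3.5 months and went on for 3 months, while behavioural testing took place at 14.7 months on average. The labels do not relate these ages to each other or give the age of single animals. RNA came from frontal cortex of perfused mice. The other libraries are from 12 males fed normal diet (ND), 15 HFD females and 14 ND females, each with both genotypes.

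Apolipoprotein E is the main lipid carrier that astrocytes secrete in the brain, and its E4 form is the strongest common genetic risk factor for late-onset Alzheimer disease. Microglia, the resident phagocytes, gather around amyloid plaques and change to a state marked by genes such as Itgax, Cst7 and Clec7a, a change that needs the receptor Trem2 and its adaptor Tyrobp. Astrocytes near plaques become reactive and raise Gfap and Serpina3n. The mouse Y chromosome holds few genes outside those of the testis, and 4 of them with housekeeping roles (Kdm5d, Eif2s3y, Uty and Ddx3y) are transcribed in the brain and have a homologue on the X chromosome.

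The libraries of HFD males held 7.81 to 11.8 M counts (the series, 5.34 to 39.4 M), so 3 counts corresponded to 0.255 to 0.384 CPM (counts scaled to the library total), and lower values are not told apart from 0. In 7 of the 11 libraries pseudogene reads followed one pattern and in 4, 2 of each genotype, another. Titles carried a sex letter in 2 of 6 APP/E3 and 3 of 5 APP/E4 libraries. Both features serve here as technical splits. The title of APP/E3 library 6 opened with the letter F, the other APP/E3 titles with D and the APP/E4 titles with E. This difference was not tested. APP/E4 library 3 stood apart: its first principal component score was 48.8 while the next highest was 19.3, its 3 granulocyte markers summed to 36.6 CPM against at most 7.63 in the other 10 libraries, and its 4 striatal markers summed to 78.8 CPM, the lowest of all. Each list whose median turned sign or moved by over 1.5 times without it is given both ways where the list is named. APP/E3 library 4 was the lowest library for cytosolic ribosome genes (1950 CPM, others 2370 to 3010) and for oxidative phosphorylation genes (5730 CPM, others 6630 to 7350). Markers of cortical layers, neurons, astrocytes and microglia were present in every library. The 6 neuronal markers summed to 7320 to 8510 CPM in APP/E3, against 7450 to 8230 in APP/E4. The 4 cortical layer markers summed to 227 to 298 and 197 to 299 CPM. Signal of other regions was present too: the 4 striatal markers summed to 253 to 737 and 78.8 to 697 CPM. The 4 olfactory bulb markers summed to 21.2 to 279 and 30.5 to 118 CPM. The part of tissue from outside the cortex was not tested. In such bulk RNA, fewer cells of a type and less RNA per cell cannot be told apart.

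Counts assigned to mouse Apoe were 15.8 ± 0.97 CPM in APP/E3 (SD, n = 6) and 16.4 ± 3.36 CPM in APP/E4 (SD, n = 5). They do not check the genotype labels, because the table lists mouse genes only and has no separate entry for the human allele. App, the amyloid precursor gene and one of the transgenes, lay between 3990 and 4930 CPM in APP/E3 and between 4140 and 4640 CPM in APP/E4. Prnp, the prion protein gene, spanned 2440 to 3030 CPM and 2510 to 3270 CPM. The groups overlapped for these 3 genes, and none passed the test (adjusted p 0.9988 to 0.9997, edgeR).

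Of 15195 genes tested with edgeR's quasi-likelihood test, 34 were called at a Benjamini-Hochberg adjusted p under 0.05 (0.224% of those tested), 26 higher (0.171%) and 8 lower (0.0526%) in APP/E4. The largest groups among them were the Serpina3 protease inhibitor genes on chromosome 12, a set of genes on chromosome 7, and the 4 Y-linked genes together with the X-linked gene Hccs. For 21 of the 34 the log2 difference exceeded 1 in size, and for 26 the CPM of the 2 groups did not overlap (207 genes, 1.36% of those tested, had groups that did not overlap). The median log2 difference over all genes was -0.0004, and 49.9% of genes were higher in APP/E4. At an unadjusted p under 0.05 there were 819 genes, where 760 would fall by the threshold alone. Without APP/E4 library 3, 21 genes were called, all of them among the 34. All 34 kept their direction within each technical split. The splits held 4 APP/E3 against 3 APP/E4 and 2 against 2 libraries by pseudogene pattern. By title they held 2 against 3 with a sex letter and 4 against 2 without. These are parts of the same 11 libraries that gave the calls, so the shared direction is no separate support.

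Promoters of 3 called genes are printed for description, and no result depends on them. Serpina3n is the most abundant of the called Serpina3 genes. Hccs is the gene whose genotype difference depended on sex, and Ptprh is a chromosome 7 gene with a motif match. The sequences are the 250 bases before the gene start from RefSeq (GRCm38.p6), 5′ to 3′ on the gene's strand, at chr12:104406458-104406707, plus strand, at chrX:169320373-169320622, minus strand, and at chr7:4604042-4604291, minus strand. Capitals mark matches, on either strand, to TTCNNNGAA (the STAT motif), CCGGAAGT (an ETS motif) or TATAAA (the TATA box).
Serpina3n: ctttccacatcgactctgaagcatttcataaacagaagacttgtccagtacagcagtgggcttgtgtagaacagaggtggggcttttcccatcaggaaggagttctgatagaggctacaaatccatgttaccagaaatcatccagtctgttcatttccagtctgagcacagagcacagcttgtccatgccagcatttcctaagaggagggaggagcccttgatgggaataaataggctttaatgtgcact
Hccs: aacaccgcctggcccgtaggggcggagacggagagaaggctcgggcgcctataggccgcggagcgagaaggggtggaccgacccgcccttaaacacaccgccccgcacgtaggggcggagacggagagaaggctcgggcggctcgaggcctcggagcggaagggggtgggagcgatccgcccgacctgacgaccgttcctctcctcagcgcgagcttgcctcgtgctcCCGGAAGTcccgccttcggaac
Ptprh: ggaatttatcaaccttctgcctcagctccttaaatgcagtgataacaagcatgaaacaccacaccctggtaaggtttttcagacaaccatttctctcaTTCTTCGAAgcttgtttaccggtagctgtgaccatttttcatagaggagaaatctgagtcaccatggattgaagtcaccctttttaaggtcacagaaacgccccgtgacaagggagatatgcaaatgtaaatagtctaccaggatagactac
Serpina3n held none of the 3 motifs in this window. Hccs had one ETS match, starting 22 bases before the start site, where 2.88% of 32851 promoter windows hold that motif. Ptprh had one STAT match, starting 152 bases before the start site, and 7.02% of windows hold it. The match was a reason to print Ptprh, so its presence is not a result. The TATA motif occurs in 12.4% of windows. A match is a description of the letters only.

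The Serpina3 genes encode secreted serine protease inhibitors of the antichymotrypsin type, and Serpina3n is a standard marker of reactive astrocytes. Serpina3n stood at 23.4, 16.4, 22.8, 17.4, 25.6 and 15.2 CPM in the 6 APP/E3 libraries and at 121, 92.3, 110, 49.4 and 42.9 CPM in the 5 APP/E4 libraries. Every APP/E4 library was above every APP/E3 library, and APP/E4 libraries 4 and 5 were the lowest of their group. The log2 difference was 2.04 ± 0.26 (SE, adjusted p = 6.16e-07, edgeR). Its neighbour Serpina3m had 0 counts in 4 of the 6 APP/E3 libraries, 0.128 and 0.342 CPM in the others, and 4.14, 4.44, 4.86, 2.03 and 2.2 CPM in APP/E4. Summed over libraries these were 4 and 168 counts, a ratio of 51.4 (exact binomial 95% interval 19.7 to 191, counting error only). Serpina3h, annotated as a transcribed pseudogene, went from 5 to 93 counts, a ratio of 22.8 (9.42 to 71.8), with 0.736 to 3.72 CPM in APP/E4. Outside the Y chromosome, no other 3 neighbouring genes were called in the same direction. Serpina3g, in the same family, was at 0.316 CPM in APP/E3, against 1.29 CPM in APP/E4 and did not pass (log2 1.96 ± 0.59, adjusted p = 0.287, edgeR). Of 50-base stretches of the annotated Serpina3m transcripts, 1.12% also occur in Serpina3n and, for Serpina3h, 0%. The labels name neither the read length nor the treatment of multi-mapping reads, so these paralogues remain uncertain to that extent.

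Other genes of reactive astrocytes did not pass. Of 20 reactive astrocyte genes tested, 16 were higher and 4 lower in APP/E4, 1 was called (Serpina3n), and the median log2 difference was 0.16 against -0.0004 over all genes. Gfap, the intermediate filament of astrocytes, ranged from 108 to 193 CPM in APP/E3 and from 165 to 203 CPM in APP/E4 and did not pass (log2 0.36 ± 0.22, adjusted p = 0.9988, edgeR). The groups overlapped because APP/E3 library 5, at 193 CPM, exceeded 4 of the 5 APP/E4 libraries. Osmr, the oncostatin M receptor, was at 5.82 and 7.28 CPM (0.32 ± 0.21). Of 21 genes of astrocyte identity, 13 were higher and 8 lower with none called and a median of 0.03. Without APP/E4 library 3 the direction turned, with 7 higher, 14 lower and a median of -0.05.

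**Figure D1:**
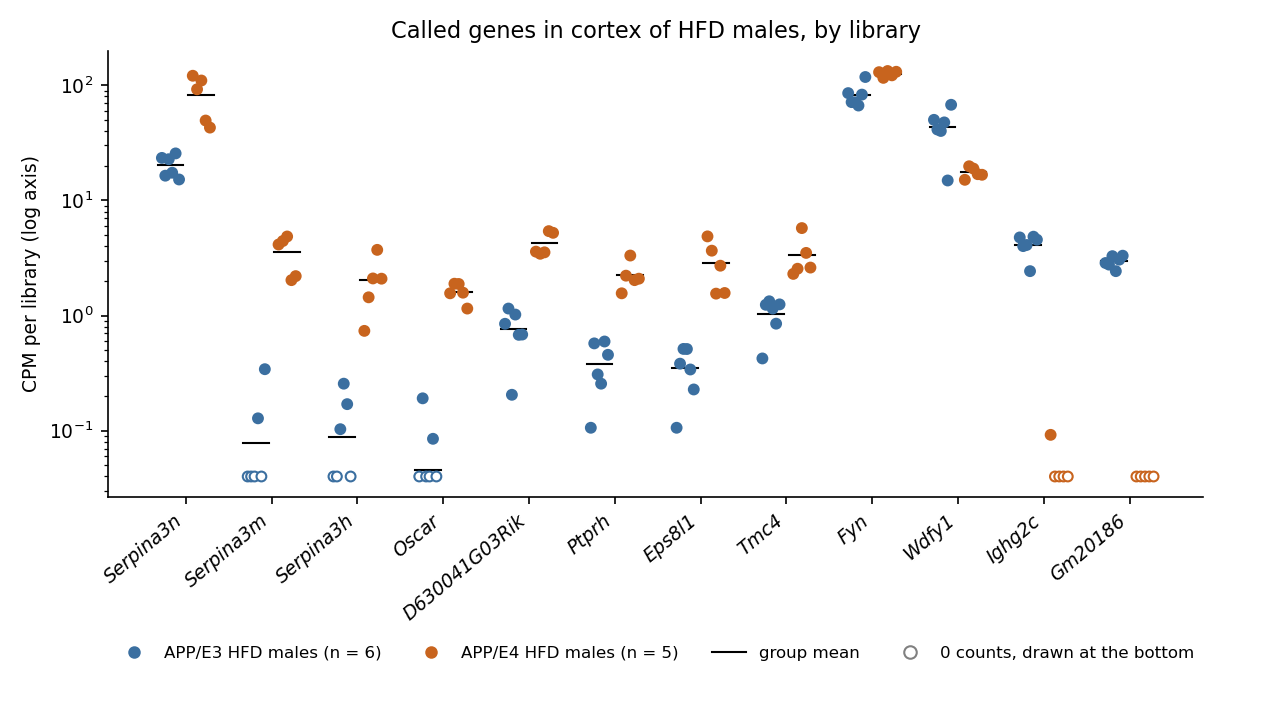
CPM of 12 called genes in each library (log axis; filled points, libraries with counts; open points, libraries at 0 counts; bars, group means) for APP/E3 (blue, 6 libraries) and APP/E4 (orange, 5 libraries) HFD males. Serpina3n lies at 15.2 to 25.6 CPM in APP/E3, against 42.9 to 121 CPM in APP/E4, while Ighg2c and Gm20186 show the reverse and Fyn and Wdfy1 overlap between the groups.

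Of the 34 called genes, 7 lie on chromosome 7 (0.612% of the 1143 tested there, against 0.224% over all genes), which is also the chromosome of Apoe, the targeted locus. The share was 1.08% of 553 genes on chromosome 12 and 0.763% of 524 on the X chromosome. The myeloid integrin gene Itgax, described with the microglial genes, is one of them. Eps8l1, related to an actin regulator, and the long noncoding RNA D630041G03Rik are neighbours and were both higher. D630041G03Rik rose from 0.764 ± 0.331 CPM (SD, n = 6) to 4.24 ± 0.989 CPM (SD, n = 5), with 3.44 to 5.41 CPM in APP/E4 and at most 1.15 CPM in APP/E3. Eps8l1 had 0.106 to 0.513 CPM in APP/E3, against 1.55 to 4.87 CPM in APP/E4, or 20 and 139 counts, a ratio of 8.51 (5.3 to 14.4). Ptprh, a receptor-type tyrosine phosphatase, had 23 and 105 counts, a ratio of 5.59 (3.53 to 9.2), and no APP/E4 library was as low as any APP/E3 library.

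Oscar encodes an immunoglobulin-like receptor of myeloid cells that was first described on osteoclasts. It had 0 counts in 4 APP/E3 libraries, 0.191 and 0.085 CPM in the other two, and 1.56, 1.89, 1.88, 1.58 and 1.15 CPM in APP/E4. The sums were 3 and 76 counts, a ratio of 31.0 (10.2 to 154). Tmc4, of the transmembrane channel-like family, rose from 1.04 ± 0.347 to 3.34 ± 1.42 CPM (log2 1.67 ± 0.33, adjusted p = 0.00697, edgeR), and without APP/E4 library 3 its adjusted p was 0.109. Rdh13, a mitochondrial retinol dehydrogenase next to Eps8l1, went the other way, from 31.2 to 40.6 CPM in APP/E3 down to 23.2 to 28.5 CPM in APP/E4 (log2 -0.48 ± 0.10, adjusted p = 0.0125), and it did not pass without APP/E3 library 4 or without APP/E4 libraries 2, 3 or 5 (adjusted p 0.0562 to 0.0742). Genes between and around them did not pass, for example Leng8 (0.23), Leng9 (0.03), Ppp1r12c (0.05) and Syt5 (0.20). Whether counting used strand is not stated in the labels, so reads of overlapping genes cannot be told apart.

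All 4 Y-linked genes tested were called, each higher in APP/E4. Kdm5d, a histone H3 lysine demethylase, was at 19.7, 21.0, 18.5, 17.0, 19.3 and 19.0 CPM in APP/E3, against 41.7, 41.8, 39.8, 41.7 and 40.9 CPM in APP/E4. The groups lay far apart with little spread inside each (log2 1.10 ± 0.15, adjusted p = 2.46e-06, edgeR). Ddx3y, an RNA helicase, went from 65.9 to 75.1 CPM in APP/E3 up to 137 to 161 CPM in APP/E4 (1.06 ± 0.16). Uty, related to the histone demethylase Kdm6a, was at 15.4 to 22.1 CPM and 30.5 to 44.1 CPM (1.04 ± 0.18), and Eif2s3y, a subunit of the translation initiation factor eIF2, at 19.6 to 27.7 CPM and 46.5 to 84.0 CPM (1.42 ± 0.14). Their X-linked homologues, looked at after these values were seen, did not pass: Kdm5c was at 74.3 ± 6.84 CPM in APP/E3, against 69.9 ± 6.43 CPM in APP/E4, Ddx3x at 304 and 275 CPM, Kdm6a at 36.7 and 34.7 CPM and Eif2s3x at 13.4 and 13.9 CPM (log2 differences -0.15 to 0.04). The Y-linked transcripts share at most 0.116% of their 50-base stretches with these homologues.

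The X-linked gene Hccs encodes the enzyme that attaches heme to cytochrome c in mitochondria. It was at 30.2, 29.7, 29.9, 25.6, 29.7 and 28.4 CPM in APP/E3, against 59.0, 58.7, 50.4, 52 and 62.2 CPM in APP/E4. The groups were separated by a wide gap (log2 0.96 ± 0.09, adjusted p = 4.87e-11, edgeR). In the order of RefSeq genes on the X chromosome, Hccs was the third from the distal end among those tested, with Mid1 on its distal side and Arhgap6 on the other. Neither neighbour passed: Mid1 was at 7.1 to 14.5 CPM in APP/E3, against 9.25 to 15.4 CPM in APP/E4, and Arhgap6 at 10 to 19.0 and 5.75 to 22.9 CPM.

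Across the series, the higher Hccs level was seen in APP/E4 males of both diets. APP/E4 ND males were at 59.8 ± 5.12 CPM (SD, n = 6) and APP/E3 ND males at 26.4 ± 3.19 CPM (SD, n = 6). In females the group means lay between 27.2 and 29.4 CPM. The 11 APP/E4 males spanned 50.4 to 65.5 CPM and the other 41 libraries 22.7 to 36.8 CPM. The difference between the genotype effects of HFD males and HFD females was 0.85 on the log2 scale (adjusted p = 2.94e-05, edgeR), and Hccs was the only gene of 15195 called for it (0.00658%). In the fits limited to libraries with 1 pattern of pseudogene reads or with a sex letter, both added after the data were seen, this difference was 0.77 and 0.77 with adjusted p of 0.284 and 0.324. The Y-linked genes were also higher in APP/E4 than in APP/E3 among ND males, with log2 differences of 0.96 for Kdm5d, 1.08 for Eif2s3y, 1.11 for Uty and 1.09 for Ddx3y, all called. In females they lay at or below 0.772 CPM.

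**Figure D2:**
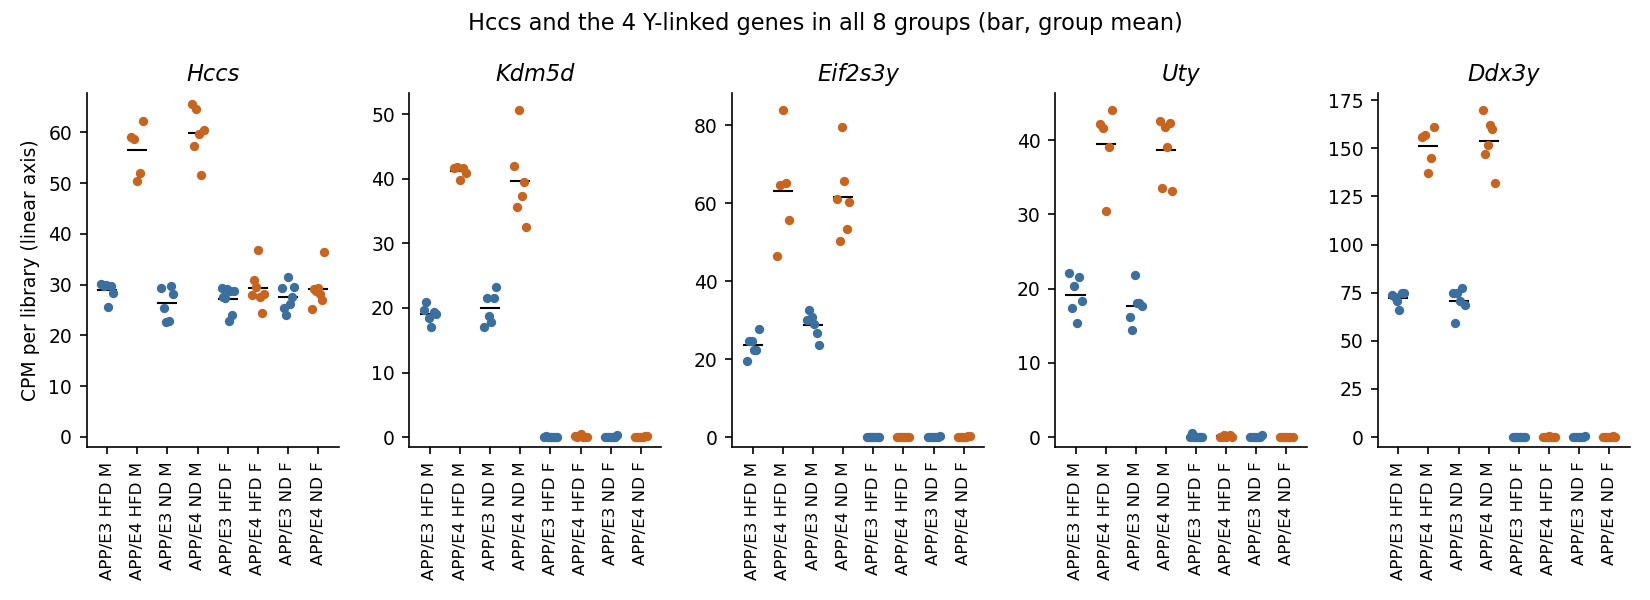
CPM of Hccs and of the 4 Y-linked genes in all 52 libraries (linear axis; points, libraries; bars, group means) for the 8 groups of genotype, diet and sex. APP/E4 males of both diets lie above APP/E3 males for all 5 genes, and females of both genotypes lie with APP/E3 males for Hccs.

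The largest decreases were in Gm20186 and Ighg2c. Gm20186, a gene model with no described function, had 2.43 to 3.31 CPM in every APP/E3 library (172 counts) and 0 counts in all 5 APP/E4 libraries, at least 46.8-fold lower against a floor of 3 counts over the group. Ighg2c, the constant region of an immunoglobulin heavy chain made by plasma cells, had 4.77, 4.01, 4.1, 2.43, 4.84 and 4.56 CPM in APP/E3, against 1 count in a single APP/E4 library. That is 243 against 1 count, a ratio of 198 (35.3 to 7870). Immunoglobulin constant genes resemble each other, and the counting may split their reads. Ighm, the heavy chain of IgM, was at 23.5 to 43.8 CPM in APP/E3, against 13.8 to 24.7 CPM in APP/E4, and the groups overlapped. It did not pass (log2 -0.81 ± 0.25, adjusted p = 0.294). Igha, of IgA, was at 0.57 and 0.636 CPM.

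Among the remaining calls, Fyn, a Src-family kinase of neurons and myelinating cells that signals downstream of synaptic receptors, rose from 82.7 ± 19.0 to 126 ± 6.89 CPM (log2 0.61 ± 0.10, adjusted p = 0.00043). The groups overlapped only through APP/E3 library 6, at 118 CPM, while the other 5 APP/E3 libraries lay at 66.7 to 85.5 CPM and APP/E4 at 116 to 133 CPM. Fyn was the only called gene of 47 on cell migration and guidance, a list in which 13 were higher and 34 lower (median -0.06, and -0.03 without APP/E4 library 3). Wdfy1, an adaptor of endosomal membranes, showed the opposite and a similar exception: 5 APP/E3 libraries lay at 40.1 to 67.7 CPM, APP/E3 library 5 at 14.9 CPM and APP/E4 at 15.1 to 19.8 CPM (log2 -1.32 ± 0.28, adjusted p = 0.0132). Its adjusted p was 0.0502 to 0.065 without APP/E3 library 6 or without APP/E4 library 1, 4 or 5. Low Wdfy1 levels in APP/E3 also occurred in other groups. APP/E3 ND males were at 14.8 to 43.1 CPM (mean 24.7), with a log2 difference of -0.68 in ND males (adjusted p = 0.346, edgeR). Over the whole series, APP/E3 libraries spanned 13.1 to 67.9 CPM and APP/E4 libraries 13.2 to 20.4 CPM. Kif24, a kinesin of centrioles, fell from 2.1 to 0.678 CPM (-1.62 ± 0.34), and without APP/E3 library 4 or APP/E4 library 2 or 3 its adjusted p was 0.0562 to 0.0882.

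Other calls were of smaller size in genes at higher levels. Mfn2, which fuses outer mitochondrial membranes, rose from 264 ± 9.12 to 309 ± 12.8 CPM, a log2 difference of 0.22 ± 0.05 and the smallest called (adjusted p = 0.0425). It passed without APP/E3 library 5 or APP/E4 library 3, and not without any other single library (0.0576 to 0.19). Pon2, an intracellular paraoxonase, fell from 55.4 ± 4.67 to 39.1 ± 6.61 CPM (-0.51 ± 0.10), Ica1, of secretory vesicles, from 42.5 to 31.8 CPM (-0.42 ± 0.09), and Tsr2, of ribosome assembly, from 80.7 to 66.2 CPM (-0.29 ± 0.06). None of these groups overlapped. The X-linked genes Bex1 and Bex2, adaptor proteins abundant in brain, lie close together and both rose. Bex2 went from 149 to 199 CPM (0.41 ± 0.08) and Bex1 from 28.5 to 39.9 CPM (0.48 ± 0.11). They share 5.13% of the 50-base stretches of Bex1, so part of their reads may be exchanged. The genes tested between them did not pass: Tceal8 (0.37 ± 0.09, adjusted p = 0.0687, edgeR), Bex4 (0.40 ± 0.15) and Tceal5 (0.12 ± 0.09). Bex1 did not pass without APP/E3 library 4 or without APP/E4 library 1, 2 or 3 (adjusted p 0.0533 to 0.0855). Ica1 did not pass without APP/E3 library 2, 3 or 6 or APP/E4 library 2, 3 or 4 (0.0616 to 0.161), and Pon2 without APP/E4 library 4 or 5 (0.0653 and 0.0809).

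The other calls were Zscan26, a zinc finger protein (80.8 to 103 CPM), Fbxo5, an inhibitor of the anaphase-promoting complex (1.02 to 2.59 CPM), Anxa4, a calcium-dependent membrane-binding annexin (4.03 to 7.2 CPM), Mcts2, a retrogene copy of Mcts1 (4.92 to 7.72 CPM), and BC022960, AK010878 and A530016L24Rik, whose roles are not described here. All 7 were higher in APP/E4, and all but A530016L24Rik did not pass without library 3 (adjusted p 0.107 to 0.348). A530016L24Rik did not pass without APP/E3 library 6 or APP/E4 library 4 or 5 (0.0518 to 0.103). Except for BC022960, the others of these also lost the call without further libraries, with adjusted p of 0.0537 to 0.278 for AK010878, 0.0592 to 0.196 for Fbxo5, 0.0844 to 0.145 for Mcts2, 0.0804 and 0.0856 for Anxa4 and 0.0552 to 0.0831 for Zscan26. Mcts1 itself was at 29.0 and 34.9 CPM and did not pass.

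Aim2, a sensor of cytosolic DNA that forms an inflammasome, rose from 1.31 ± 0.484 to 2.99 ± 0.536 CPM (log2 1.18 ± 0.28, adjusted p = 0.0486), with no overlap between the groups. Of the single libraries, only APP/E3 library 5 could be left out with the call kept, and without any of the others its adjusted p was 0.0562 to 0.244. Related genes of the interferon-inducible p200 family that lie around it, looked at after the values were seen, were also low in level and did not pass: Pyhin1 was at 0.287 and 0.675 CPM, AI607873 at 0.427 and 0.956 CPM, Ifi204 at 0.49 and 0.938 CPM, Mndal at 0.465 and 0.74 CPM and Ifi203 at 0.676 and 0.995 CPM.

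Microglial genes were higher on the whole in APP/E4, but single genes rarely passed and the highest values came from APP/E4 library 3. Of 26 plaque-associated microglial genes tested, 22 were higher and 4 lower, 1 was called (Itgax, 0.224% of all genes were), and 11 were higher at an unadjusted p under 0.05 (5.39% of all genes passed that in either direction). Their median log2 difference was 0.23. At that unadjusted p, 5 of 27 were higher and 1 was lower when APP/E4 library 3 was left out. Itgax, the integrin chain CD11c, was at 0.53, 0.286, 1.13, 1.15, 0.595 and 1.48 CPM in APP/E3, against 0.368, 1.33, 5.42, 2.93 and 2.93 CPM in APP/E4. APP/E4 library 1 lay within the APP/E3 range and library 3 far above (log2 1.60 ± 0.37, adjusted p = 0.0419). Without library 3 the difference was 1.14 and the adjusted p 0.621, and the call was also lost without any one of APP/E3 libraries 1 to 5 or APP/E4 libraries 4 and 5 (0.0536 to 0.159). Cst7, a cysteine protease inhibitor, had 0.636 to 2.39 CPM in APP/E3, against 1.29 to 10.4 CPM in APP/E4 (1.79 ± 0.46, adjusted p = 0.111). Clec7a, the beta-glucan receptor dectin-1, had 0.424 to 1.82 and 0.92 to 5.53 CPM (1.46 ± 0.38, adjusted p = 0.13). The chemokine gene Ccl6 was at 1.33 to 2.85 and 2.03 to 5.97 CPM (0.81 ± 0.24, adjusted p = 0.23).

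Among 34 genes of Trem2-Tyrobp signalling and phagocyte receptors, 31 were higher and 3 lower, with none called and a median of 0.23. At an unadjusted p under 0.05, 7 were higher, and 1 when APP/E4 library 3 was left out. Trem2, the lipid-sensing receptor, was at 13.9, 13.2, 16.4, 12, 15.1 and 15.6 CPM in APP/E3, against 13.5, 19.2, 26.0, 15.6 and 15.4 CPM in APP/E4 (0.31 ± 0.16, adjusted p = 0.954). Tyrobp, its adaptor, was at 12.3 to 17.9 and 13.4 to 34.0 CPM (0.35 ± 0.16, adjusted p = 0.866), the highest again being library 3. The groups did not overlap for 2 of the 34 genes, against 1.36% of all genes. Cybb, the catalytic subunit of the phagocyte NADPH oxidase, was 1 of them. It was at 0.668 to 1.19 CPM in APP/E3, against 1.47 to 3.33 CPM in APP/E4, with 2 libraries near the top (1.31 ± 0.34, adjusted p = 0.129, edgeR). The summed level of the list was 304 to 360 CPM in APP/E3, 574 CPM in APP/E4 library 3 and 343 to 377 CPM in the other 4 APP/E4 libraries. The 5 microglial markers summed to 298 to 372 CPM in APP/E3 and to 318 to 472 CPM in APP/E4, with library 3 the highest, and the part of microglial content in these values was not tested.

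Homeostatic microglial genes showed a smaller shift, with 14 of 20 higher, none called and a median of 0.10. Cx3cr1, the fractalkine receptor, was at 75.4 and 81.1 CPM, and Tmem119 at 29.5 and 28 CPM. Without APP/E4 library 3 the median of the homeostatic list was -0.02 (8 of 20 higher), that of the Trem2-Tyrobp list 0.09 (23 of 34 higher) and that of the plaque-associated list 0.14 (22 of 27 higher), with 0 called in each.

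**Figure D3:**
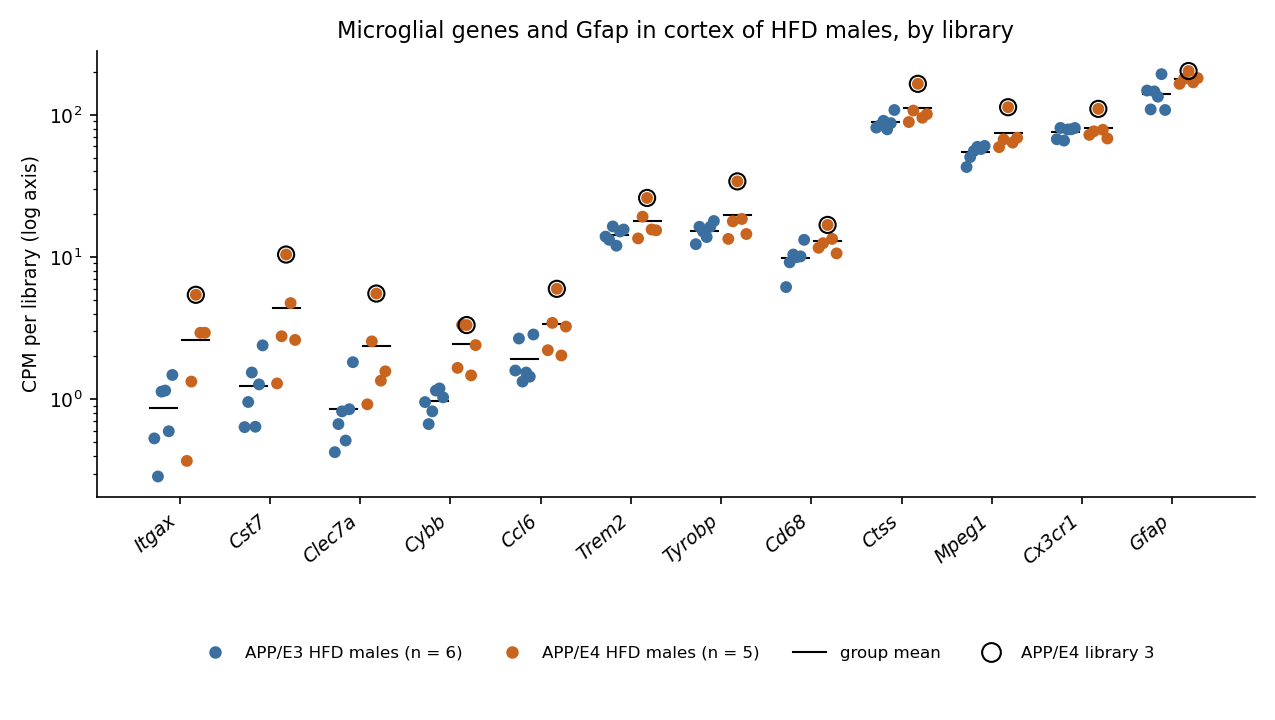
CPM of 11 microglial genes and Gfap in each library (log axis; points, libraries; bars, group means) for APP/E3 (blue, 6 libraries) and APP/E4 (orange, 5 libraries) HFD males. APP/E4 library 3, ringed, is the highest library for every gene shown except Cybb, where it is at 3.32 CPM and library 2 at 3.33 CPM.

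Interferon-response genes were higher for 33 of 35 members, none called, with 5 higher at an unadjusted p under 0.05 and a median of 0.33. When APP/E4 library 3 was left out, 33 of 36 were higher, 2 of them at that p, with a median of 0.25. Ifit1, an interferon-induced RNA-binding protein, was at 2.77 to 5.18 CPM in APP/E3, against 4.77 to 8.26 CPM in APP/E4 (0.68 ± 0.32, adjusted p = 0.9), and Gbp3, a guanylate-binding protein, at 3.69 to 6.02 and 5.06 to 9.84 CPM. All 17 antigen presentation genes were higher, none called, with a median of 0.31 (0.20 without library 3, 14 of 17 higher). B2m, the light chain of class I molecules, was at 70.5 to 89.6 and 85.6 to 126 CPM (0.31 ± 0.13), and the invariant chain gene Cd74 at 3.08 to 8.93 and 5.3 to 21.7 CPM. Of 17 complement genes, 14 were higher and 3 lower, none called, with a median of 0.16, which was 0.03 without library 3. Cd59a, which blocks the membrane attack complex, did not overlap between groups, at 4.33 to 9.47 and 10.3 to 12.3 CPM, and did not pass (0.83 ± 0.23, adjusted p = 0.217, edgeR). The groups did not overlap for 2 of the 17 complement genes, against 1.36% of all genes.

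Lists of blood, striatal and olfactory genes varied widely between libraries. The 9 blood cell genes had a median of 0.80 with all libraries and -0.92 without library 3, whose sum was 125 CPM while the other APP/E4 libraries had 23.6 to 28.1 CPM and APP/E3 33.4 to 66.3 CPM. All 19 striatal genes were lower in APP/E4 with none called (median -0.46, and -0.19 without library 3), and their sums ranged from 1140 to 3180 CPM in APP/E3 and from 446 to 2920 CPM in APP/E4. Of 15 olfactory bulb genes 14 were lower (median -0.84, none called), with sums of 220 to 800 and 138 to 429 CPM. Inhibitory neuron genes were lower for 16 of 21 (median -0.24) and glutamate and GABA receptor genes for 30 of 35 (median -0.08), none called. Without library 3 the medians were -0.13 (17 of 21 lower) and -0.03 (23 of 35 lower). The part of region and cell content in these values was not tested.

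No gene of the following lists was called. Of 73 cytosolic ribosome genes, 68 were higher (median 0.15), against 60 without APP/E4 library 3 (0.11) and 58 without APP/E3 library 4 (0.08), and the member with the smallest p, Rpl28, was at 2.05 to 4.13 and 0.732 to 2.21 CPM (-0.96 ± 0.28, adjusted p = 0.22). Of 57 chromatin and transcription regulators 42 were lower (median -0.08, and -0.04 without APP/E4 library 3 or APP/E3 library 4), and of 22 genes of mural cells and meningeal fibroblasts 21 were higher (0.28). Of 62 oxidative phosphorylation genes 47 were higher (0.04), but without APP/E3 library 4 the direction turned, with 28 higher, 34 lower and a median of -0.01. The 25 genes of lipoprotein handling were split, 10 higher and 15 lower (median -0.02, and 0.004 with 13 higher without APP/E3 library 4), with Lrp8, an APOE receptor, at 88.4 to 125 and 79.6 to 92.5 CPM (-0.22 ± 0.12). The 24 genes of cholesterol synthesis had a median of 0.07 (0.04 without APP/E4 library 3) and the 30 of insulin and IGF signalling -0.03. Of 33 Alzheimer risk genes 20 were higher and 13 lower, none called (median 0.04, and 0.02 without APP/E4 library 3). Pdk4, a switch from glucose to fatty acid use, was at 11.8 to 18 and 15.6 to 27.6 CPM (0.57 ± 0.16, adjusted p = 0.2).

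**Figure D4:**
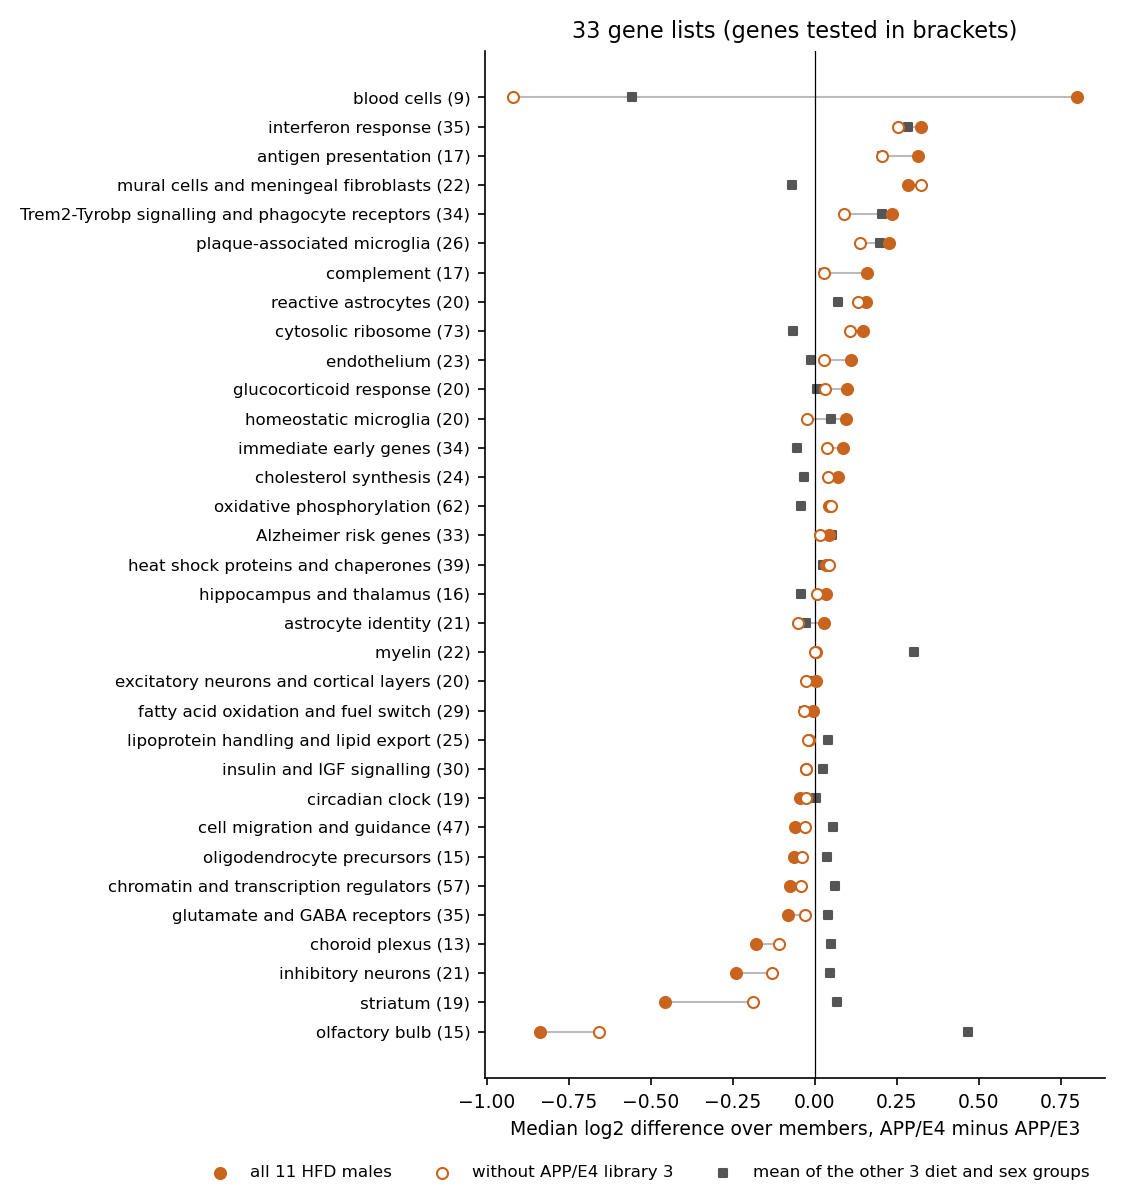
Median log2 difference between APP/E4 and APP/E3 over the tested members of each of 33 gene lists (members in brackets, on the vertical axis) in all 11 HFD males (filled), without APP/E4 library 3 (open) and as the mean of the other 3 diet and sex groups (squares). The blood cell median changes from 0.80 to -0.92 when library 3 is left out, while that of interferon response goes from 0.33 to 0.25.

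The same genotype difference in the other 3 diet and sex groups, averaged, shares no library with HFD males. There 1206 genes were called (7.94%), from 41 libraries in place of 11. Of the 30 HFD-male calls not placed on the Y chromosome, all 30 had the same direction there and 28 were called. The exceptions were Mcts2 and BC022960. A chromosome position was known for 32 of the 34 calls, and Gm20186 and BC022960 had none. Taken group by group, 23 of the 34 were called in the same direction in ND males (where 0.401% of genes were called), 23 in HFD females (0.605%) and 18 in ND females (0.961%). Serpina3n was at 20 and 95.4 CPM in ND males, 16.9 and 108 CPM in HFD females and 23.2 and 112 CPM in ND females. Gm20186 was at or under 0.262 CPM in all 25 APP/E4 libraries and at 1.34 to 4.11 CPM in all 27 APP/E3 libraries. Fyn lay at 66.0 to 118 CPM in APP/E3, against 114 to 188 CPM in APP/E4 over the whole series. The myelin list differed in size: its median was 0.004 in HFD males (0.0012 without APP/E4 library 3 and 0.08 without APP/E3 library 4) and 0.30 in the other 3 groups, where 8 of 22 genes were called higher, and no difference of lists was tested.

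No gene was called for a difference between the genotype effects of HFD and ND males (0%, edgeR, 702 genes at an unadjusted p under 0.05), and DESeq2 and limma-voom also called 0 (708 and 658 unadjusted). Genes that passed in HFD males and not in another group are therefore not shown to differ between diets. Itgax, for example, had log2 differences of 1.60 in HFD males and 0.52 in ND males, with an adjusted p of 0.85 for the difference.

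**Figure D5:**
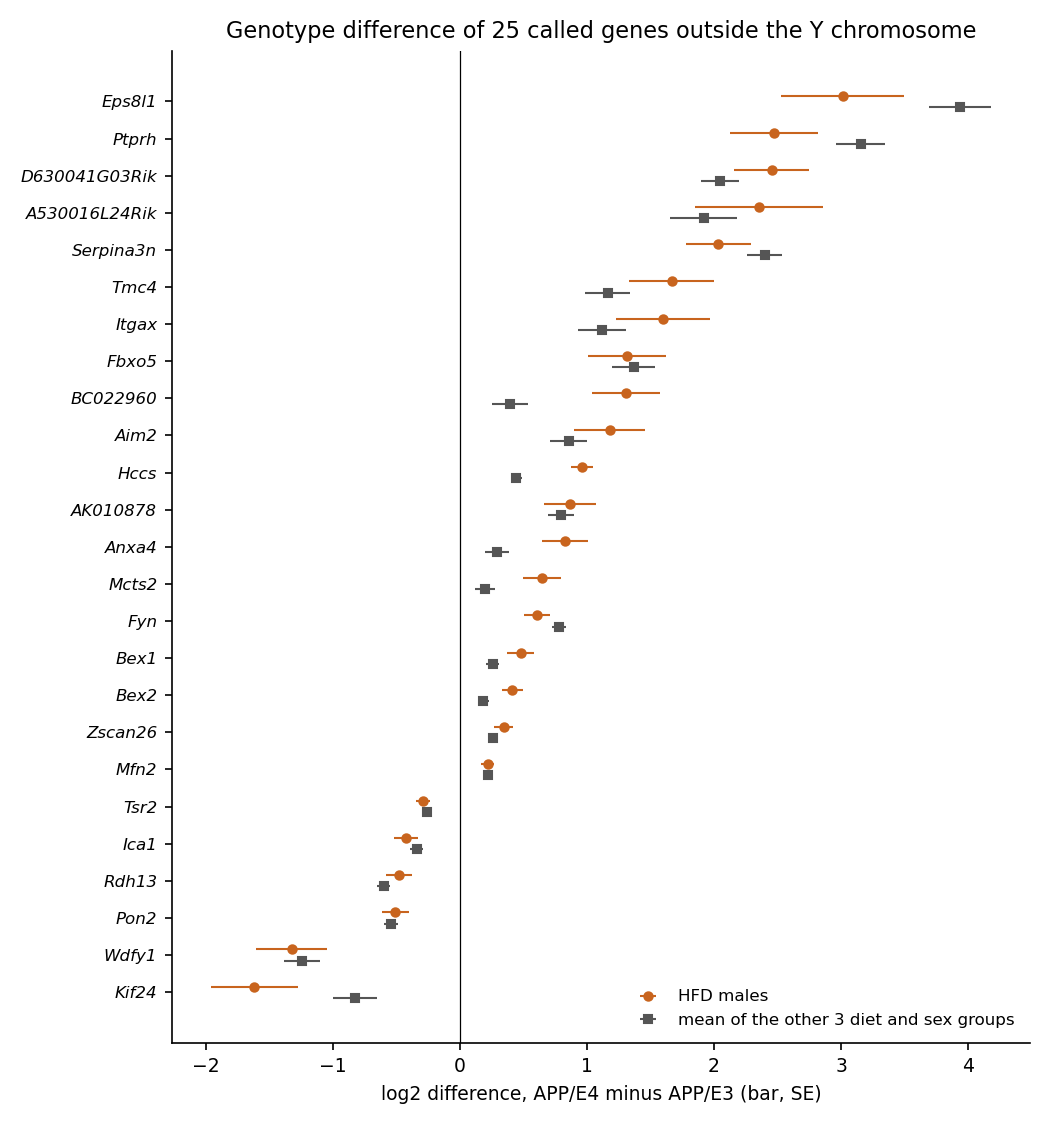
Log2 difference between APP/E4 and APP/E3 (points, with SE as bars) for 25 called genes not placed on the Y chromosome, with 10 or more counts in each group. Circles show HFD males and squares the mean of the other 3 diet and sex groups. BC022960, among the genes shown, has no known chromosome position. All 25 lie on the same side of 0 in both, with Hccs at 0.96 in HFD males and 0.45 in the mean of the others.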

How the data were processed

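Messenger RNA of frontal cortex was measured in 52 libraries. The authors deposited a table of raw counts, genes by libraries, with Subread, featureCounts, limma, edgeR 3.14.0 and build mm9 named in the submitters' processing notes. Annotation, strand setting and read length: not given in the sources used here. A second deposited table, of the authors' diet comparison, was not used.

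Groups follow the labels. Of 15692 genes, 15195 passed filterByExpr over the 8 groups. A robust quasi-likelihood fit with TMM scaling and 1 mean per group over all 52 libraries was made with edgeR 4.0.16 in R 4.3.3, with Benjamini-Hochberg adjustment per contrast over all genes and a call at an adjusted p under 0.05. Contrasts were APP/E4 against APP/E3 in HFD males, in the other 3 diet and sex groups, and its difference from ND males and from HFD females. CPM use total counts, and log2 differences are those given by the fit. A prior count of 2 applies only to the log2 CPM behind the principal components and the pseudogene patterns. Splits by title or pseudogene reads use log2 of CPM plus 0.5. The fit was tested on simulated data for the HFD-male comparison (15195 genes). It recovered 95% of 100 genes changed by a log2 of 1 and 95% of 100 changed by 2, with 6 false calls. The changed genes were drawn only from those with a mean over 2 CPM, and no outlying library was simulated. Recovery at lower levels, or with a library such as APP/E4 library 3, was therefore not measured. Pseudogene patterns came from Ward clustering of 311 pseudogenes. No libraries were duplicates (25 pairs within the 2 groups, chi-square per gene at least 3.06). DESeq2 1.42.0, limma 3.58.1, other scalings, filters, covariates and left-out libraries were alternatives.

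Chromosome, gene order, gene type and promoters come from RefSeq (GRCm38.p6, 15448 IDs matched), transcripts from GENCODE. The 33 gene lists (923 of 937 entries matched) and the comparison itself were chosen with earlier results of these data known, so lists are described, not tested. Named genes were the 12 strongest calls in each direction, of each list up to 4 called members or otherwise up to 2 members by p, engineered and glial marker genes, up to 6 genes leading each test of a difference, and runs of adjacent calls. Other genes named were chosen after their values were seen. Some genes that met the rule are not reported here. The labels do not state that libraries come from separate animals, and p-values measure only the spread between these libraries.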

Additional observations from a re-analysis of the deposited data

Results flagged for a closer look

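Each of 216 checks looked at 1 gene in 1 group of 5 or 6 libraries. In 14 of them a library lay far from the others, where chance alone marks about 5%. That is not far above the chance share, and no single flag was tested. In APP/E3, library 4 was low for Hccs (25.6 CPM, others 28.4 to 30.2), Ighg2c (2.43 CPM), Ndufc2 (45.3 CPM, others 58.4 to 60.5) and Bex1 (24.4 CPM). APP/E3 library 3 was low for D630041G03Rik (0.205 CPM), APP/E3 library 5 for Wdfy1 (14.9 CPM, others 40.1 to 67.7), and APP/E3 library 1 was high for Lrp8 (125 CPM). APP/E4 library 3 was high for the microglial genes Gpr34 (26.9 CPM) and Mpeg1 (113 CPM, others 59.2 to 68.9) and low for the kainate receptor gene Grik3 (108 CPM, others 177 to 193). APP/E4 library 1 was high for Cd59a (12.3 CPM), low for Mcts2 (6.62 CPM), and held the only Ighg2c count of its group (0.092 CPM). APP/E4 library 2 was high for the heat shock gene Hspa1a (8.1 CPM, others 5.53 to 6.08).

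The genotype difference of Hccs was 0.96 in HFD males and 0.11 in HFD females, and the test of that difference gave 0.85 on the log2 scale.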

How the results depend on the processing

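Fits without 1 HFD-male library set aside, other normalizations, tests, filters, covariates and library sets gave 27 to 48 calls in HFD males, against 34. The exceptions were 2 fits added after the data were seen. Libraries of 1 pseudogene pattern gave 22 calls (18 of them among the 34) and libraries with a sex letter in the title 9 (8 among them). Leaving out 1 HFD-male library at a time gave 21 to 32 calls, the lowest without APP/E4 library 3. Serpina3n, Serpina3m, Oscar, Ighg2c, Hccs, Gm20186, Eif2s3y and D630041G03Rik were called in all 26 alternatives, while Aim2 was lost in 18, AK010878 in 16, Itgax and Mcts2 in 15, Mfn2 in 14 and Fbxo5 in 12. All 34 kept their direction, in fits that reuse the same HFD-male libraries. In the other 3 groups, 1206 calls became 675 with 1 pseudogene pattern, 139 with lettered titles, 1558 with a pseudogene term, 1803 with both terms and 1313 without the deepest library, and 1140 to 1263 when single HFD-male libraries, none of them in those groups, were left out of the shared fit. For the difference from HFD females, DESeq2 called 2 genes (Hccs and Alb, the latter named after its value was seen). Alb had an extreme log2 of -25.6 in DESeq2 and was called by no other fit. Both restricted fits called 0 genes for that difference, and each fit without 1 HFD-male library called 1. The difference from ND males gave 0 calls in every alternative, with 257 to 1722 genes at an unadjusted p under 0.05. The restricted fits hold fewer libraries, and the cause of the other changes was not tested.

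Among the genes named by rule, 4 that did not pass changed sign, and more list members did so without APP/E4 library 3 or, in a summary added after the data were seen, without APP/E3 library 4. App, at -0.0001, became 0.0017 (males only), 0.0052 (HFD males only), 0.0025 (DESeq2 or its size factors), 0.0042 (total counts or without the deepest library), 0.0014 (voom), 0.003 (no filter), 0.0046 (pseudogene term), 0.0129 (both terms), 0.0097 (1 pseudogene pattern), 0.0165 (males, both terms) and -0.0263 to 0.0342 without single libraries. Apoe became -0.0205 (title term), -0.0391 (both terms), -0.0349 (males, both terms) and spanned -0.0574 (without APP/E4 library 3) to 0.1457 without single libraries. Prnp became -0.0088 (title term) and spanned -0.0134 (without that library) to 0.0857, and S100a9 became -0.5806 (voom) and spanned -1.9776 (without that library) to 1.8724. No paired analysis was possible because replicate numbers follow the order of deposit and pair no animals. Depth limits genes under 0.255 to 0.384 CPM.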
